A study of Mus musculus with 6 samples.

Results

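The enzymes that make serine from a glycolytic intermediate and move its one-carbon unit through the folate cycle were examined in mouse retina with oxygen-induced retinopathy. They are 10 genes, taken by name from a table of 54532 gene IDs: Phgdh, Psat1 and Psph of serine synthesis, Shmt1, Mthfd1 and Aldh1l1 of the cytosolic folate branch, and Shmt2, Mthfd2, Mthfd1l and Aldh1l2 of the mitochondrial branch. Each name had a single gene ID, and all 10 passed the filter on low counts. Total RNA of retina from wild-type (WT) C57BL/6J mice at postnatal day 17 had been sequenced in 3 OIR and 3 normal samples. OIR is the usual short form of oxygen-induced retinopathy. In that model newborn mice breathe oxygen-rich air for some days and then ordinary air, so that the underperfused retina turns hypoxic and sprouts abnormal vessels. Both groups share the strain, the WT genotype and the age, and the times in oxygen are not given in these sources. The series looks for transcripts that change with hypoxia-driven vessel growth.

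Serine synthesis branches from glycolysis at 3-phosphoglycerate, and serine then gives its side-chain carbon to tetrahydrofolate. In mitochondria that carbon is oxidised step by step to formate, which leaves for the cytosol and is used there for purines, thymidylate and methionine. Cytosol and mitochondria hold parallel enzymes for most of these steps. In nervous tissue serine synthesis is largely a task of glia, and the stress-induced transcription factor ATF4 is known to raise many genes of the pathway in other cells.

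Depth was 15818168 to 17163513 counts per library, and 17108 genes were tested. By Xist and Y-linked transcripts, 2 OIR libraries and 1 normal library were female, and 1 OIR library and 2 normal libraries were male. Whether each sample is a separate animal is not stated in the labels. With both sexes in each group, the libraries of a group cannot all come from 1 animal. The p-values therefore cover only the spread among these samples, which may be technical in part. Rod markers were abundant in every library, with summed levels of 41322 to 45968 CPM in OIR and 49914 to 54019 CPM in normal libraries (counts per 1e6 counts, TMM-scaled). One library stood apart in its lens transcripts: the 9 lens markers summed to 5866 CPM in OIR 3, against 79.4 and 356 CPM in OIR 1 and OIR 2 and 8.03 to 353 CPM in the normal libraries. Pigment epithelium markers summed to 114 to 136 CPM in OIR and 206 to 355 CPM in normal libraries. Of these 8 markers 5 were lower by edgeR, beside 8.73% of all genes tested, and none was at 0 in both groups.

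The RefSeq table held promoters of 9 members (build GRCm38.p6) and none of Aldh1l2. The 250 bases before the start are shown for the 3 members with a promoter entry that rose, Aldh1l1 at chr6:90550543-90550792 (plus strand), Mthfd1l at chr10:3972825-3973074 (plus strand) and Shmt2 at chr10:127522445-127522694 (minus strand), and for Phgdh, the entry enzyme, which did not pass the test, at chr3:98339970-98340219 (minus strand). Capitals mark matches on either strand to TGATGNAA (the element bound by ATF4 with a C/EBP partner), to CACGTG (the E-box), or to ACGTG and GCGTG (cores of the hypoxia response element). A CACGTG match also holds ACGTG.
Aldh1l1: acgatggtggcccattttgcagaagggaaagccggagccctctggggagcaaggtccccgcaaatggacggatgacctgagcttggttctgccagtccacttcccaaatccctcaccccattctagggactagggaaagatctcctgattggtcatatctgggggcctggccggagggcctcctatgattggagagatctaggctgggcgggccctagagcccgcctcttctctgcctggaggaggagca
Mthfd1l: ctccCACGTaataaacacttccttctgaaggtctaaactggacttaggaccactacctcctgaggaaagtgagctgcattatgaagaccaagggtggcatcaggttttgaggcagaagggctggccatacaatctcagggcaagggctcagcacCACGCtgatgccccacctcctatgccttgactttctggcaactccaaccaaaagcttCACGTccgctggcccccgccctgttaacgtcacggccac
Shmt2: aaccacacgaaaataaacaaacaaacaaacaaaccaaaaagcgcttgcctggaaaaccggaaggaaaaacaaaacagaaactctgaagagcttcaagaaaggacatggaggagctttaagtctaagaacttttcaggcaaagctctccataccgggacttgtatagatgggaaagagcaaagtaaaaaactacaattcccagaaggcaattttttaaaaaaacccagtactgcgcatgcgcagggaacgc
Phgdh: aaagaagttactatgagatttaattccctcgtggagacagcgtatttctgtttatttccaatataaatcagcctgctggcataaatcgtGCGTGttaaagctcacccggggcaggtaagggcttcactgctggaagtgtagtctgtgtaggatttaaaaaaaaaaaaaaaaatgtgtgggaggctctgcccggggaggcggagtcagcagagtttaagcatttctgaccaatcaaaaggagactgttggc
No member promoter held TGATGNAA or CACGTG, which stood in 3.45% and 6.02% of the 32851 promoters of the table over the same 250 bases. ACGTG or GCGTG stood in 38.6% of all promoters. Mthfd1l held 2 ACGTG matches and 1 GCGTG match and Phgdh 1 GCGTG match, whereas Aldh1l1, Shmt2 and Mthfd2 held none of the letters searched in these windows. Psph, Psat1, Shmt1 and Mthfd1 each held at least 1 GCGTG match, Psat1 in both of its annotated starts. The windows precede RefSeq starts, and some, as for Aldh1l1 and Mthfd2, lie inside the gene spans used for the counts. Bases before other starts were not searched. The Psph window lies wholly in exons of Cct6a, and that of Mthfd1 in exons of Gm47525.

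Of the 10 enzymes, 4 were higher in OIR retina, none was lower and 6 did not pass, by the quasi-likelihood test of edgeR (threshold 0.05 on the adjusted p). Over all genes tested 11.1% were called higher and 8.73% lower. DESeq2 and limma-voom also called 4 higher and 0 lower, beside 11% and 11.1% of all genes higher and 9.4% and 8.73% lower, and at an unadjusted p under 0.05 the edgeR counts were again 4 and 0, where 17.2% of all genes were higher and 15.3% lower. The called enzymes were Aldh1l1 of the cytosolic branch and Shmt2, Mthfd1l and Aldh1l2 of the mitochondrial branch. None of the 3 serine synthesis genes was called, with 0 of 3 groups apart. The median log2 fold change was 0.68 over the 4 mitochondrial enzymes, 0.00443 over the 3 cytosolic enzymes and −0.07 over the 3 serine synthesis genes, against 0.013 over all genes tested. In the same 4 enzymes that were called, every OIR library lay above every normal library, and the other 6 overlapped. Over all genes tested 18.7% had every OIR library above every normal library.

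**Figure D1:**
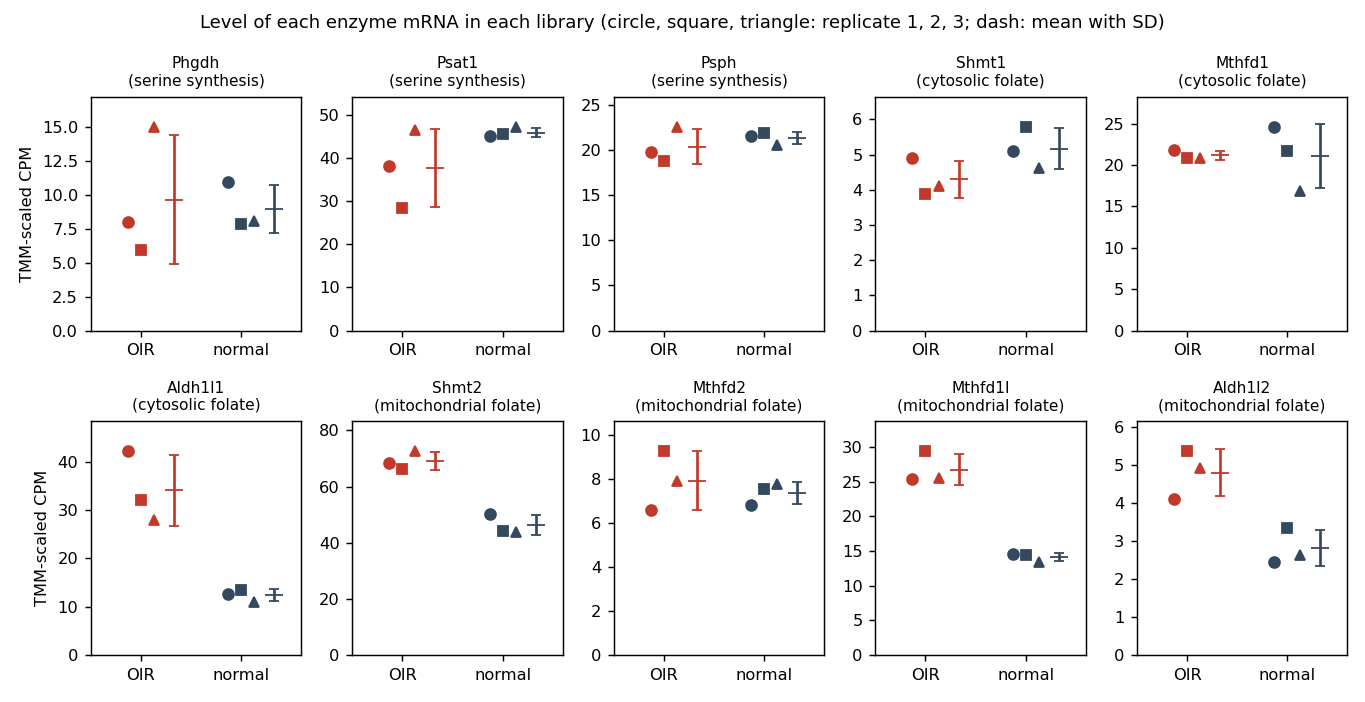
TMM-scaled CPM (vertical axes, from 0) of each enzyme mRNA in the 3 OIR and 3 normal libraries, with the mean and SD beside the points. Aldh1l1, Shmt2, Mthfd1l and Aldh1l2 do not overlap between groups, and Phgdh and Psat1 are spread widely among the OIR libraries.

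Serine synthesis begins with Phgdh, the dehydrogenase that oxidises 3-phosphoglycerate (ENSMUSG00000053398, chromosome 3, 98313170 to 98339990, minus strand, mm10). Its level was 8.02, 5.96 and 14.98 CPM in OIR 1, 2 and 3, against 10.96, 7.85 and 8.04 CPM in normal 1, 2 and 3. The OIR libraries lay on both sides of the normal ones, with a 2.52-fold gap between their highest and lowest, against 1.40-fold among the normal libraries. The log2 fold change was 0.11 ± 0.29 (standard error, SE; edgeR adjusted p of 0.837).

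Psat1 encodes the aminotransferase of the second step (ENSMUSG00000024640, chromosome 19, 15904678 to 15947337, minus strand, mm10). It had 38.1, 28.5 and 46.5 CPM in OIR libraries, against 45.1, 45.5 and 47.2 CPM in normal libraries. OIR 1 and OIR 2 were below all normal libraries and OIR 3 was among them. The log2 fold change was −0.28 ± 0.14 (SE; edgeR adjusted p of 0.195).

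Psph, the phosphatase that releases serine, had 19.7, 18.8 and 22.5 CPM in OIR libraries, against 21.5, 21.9 and 20.6 CPM in normal libraries. The groups overlapped, and the log2 fold change was −0.07 ± 0.11 (SE; edgeR adjusted p of 0.712). Of its exon bases, 10.4% are shared with exons of Cct6a on the opposite strand, so part of its reads cannot be assigned without strand.

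All 3 serine synthesis mRNAs were highest among the OIR libraries in OIR 3, the library with the lens transcripts. Without OIR 3, Psat1 was lower in OIR retina, with a log2 fold change of −0.48 and an edgeR adjusted p of 0.026, where the adjusted p ranged from 0.026 to 0.507 over 14 alternatives and passed in this 1. Phgdh then had a log2 fold change of −0.37 (adjusted p of 0.285, range 0.285 to 0.981). The count of enzymes called was 3 higher and 1 lower without OIR 3, beside 8.77% of all genes higher and 7.16% lower. The part of the lens transcripts in these values was not tested.

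**Figure D2:**
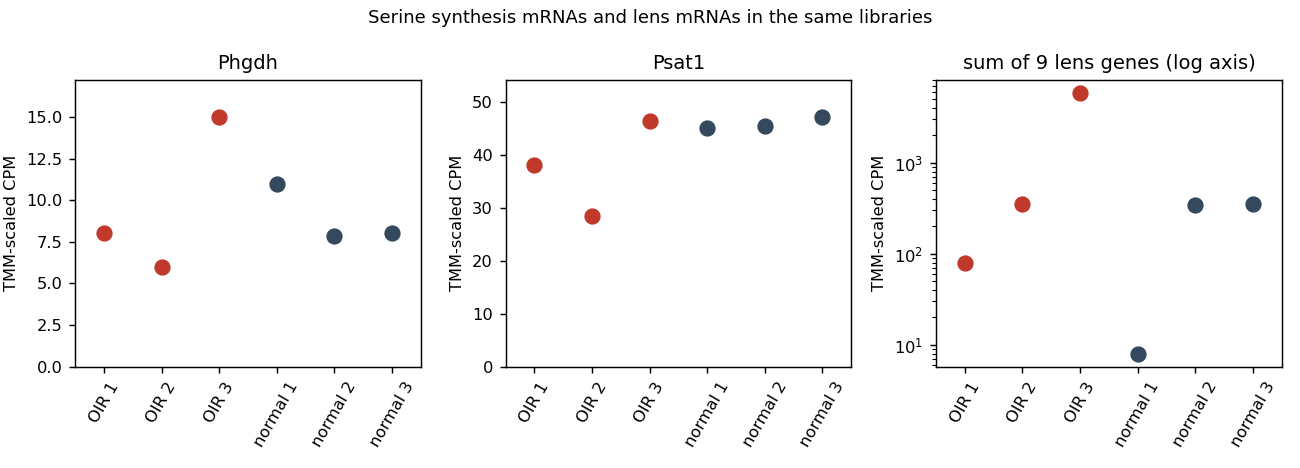
TMM-scaled CPM of Phgdh and Psat1 (linear axes from 0) and the summed CPM of 9 lens markers (log axis) in each library. OIR 3 has the highest Phgdh at 14.98 CPM and the highest lens sum at 5866 CPM.

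In the cytosolic branch the largest difference was in Aldh1l1, which encodes 10-formyltetrahydrofolate dehydrogenase, an enzyme that removes one-carbon units as carbon dioxide and is widely used as an astrocyte marker in brain (ENSMUSG00000030088, chromosome 6, 90486427 to 90600203, plus strand, mm10). It had 42.1, 32.1 and 27.9 CPM in OIR libraries, against 12.7, 13.4 and 11.0 CPM in normal libraries. All OIR libraries lay above all normal libraries, and OIR 1 was the highest. The log2 fold change was 1.46 ± 0.16 (SE), a 2.75-fold difference (edgeR adjusted p of 0.000108), and 96.9% of the genes tested had a lower one. Its exons share 11.05% of their bases with Gm15756 on the opposite strand, which had 0 counts in every library.

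Glial markers moved in both directions beside Aldh1l1, in a test where 11.1% of all genes were higher and 8.73% lower. Of 13 Müller glia markers 7 were lower and 3 higher, and their summed level was 4946 to 5775 CPM in OIR and 5825 to 6671 CPM in normal libraries. Of 8 astrocyte markers 2 were higher, 1 lower and 5 not called. Their sums were 972 to 1069 CPM in OIR and 663 to 717 CPM in normal libraries. Most of the gap between these sums came from Gfap alone, and Aldoc and Igf1r, also abundant in the list, did not pass (log2 fold changes 0.09 and 0.21). The Müller markers with the smallest adjusted p were all higher: Vim, an intermediate filament gene, with 646 ± 8.13 CPM in OIR and 217 ± 1.54 CPM in normal retina, Crym with 192 ± 37.1 CPM in OIR and 73.2 ± 11.0 CPM in normal retina, and Sox9, a transcription factor gene, with 53.0 ± 4.67 CPM in OIR and 27.8 ± 2.30 CPM in normal retina (SD, n = 3). Glul, a defining Müller enzyme and the most abundant of the list, was lower, with 1538, 1407 and 1842 CPM in OIR, against 2631, 2292 and 2181 CPM in normal libraries. Among astrocyte markers Gfap had 273, 299 and 213 CPM in OIR, against 21.4, 24.4 and 20.6 CPM in normal libraries. Pdgfra was also higher (log2 fold change 0.82) and Slc39a12 lower (−1.04). No marker of either list was at 0 in any library, and their part in the rise of Aldh1l1 was not tested. In whole retina, a change in the number of cells of a type and a change in RNA per cell cannot be told apart.

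Shmt1, the cytosolic serine hydroxymethyltransferase, and Mthfd1, the cytosolic enzyme that joins 3 folate activities in 1 protein, did not pass. Shmt1 had 4.89, 3.89 and 4.11 CPM in OIR libraries, against 5.09, 5.78 and 4.63 CPM in normal libraries, with a log2 fold change of −0.27 and a standard error of 0.19 (edgeR adjusted p of 0.371). It rests on 66 to 95 counts per library. Of its exon bases 4.74% are shared with Smcr8 on the opposite strand, which had 3121 counts over the OIR libraries and 3781 over the normal ones, against 219 and 252 for Shmt1. Smcr8 was itself lower in OIR retina (log2 fold change −0.34, edgeR adjusted p of 0.0114), and its part in the count of Shmt1 and in the ratio of Shmt2 to Shmt1 was not tested. Mthfd1 had 21.7, 20.8 and 20.9 CPM in OIR libraries, against 24.6, 21.7 and 16.9 CPM in normal libraries. Its OIR values lay inside the range of the normal ones, and the log2 fold change was 0.0044 ± 0.14 (SE; edgeR adjusted p of 0.987), whose sign turned in 6 of 14 alternatives.

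In mitochondria Shmt2 passes the carbon of serine to folate (ENSMUSG00000025403, chromosome 10, 127517123 to 127522444, minus strand, mm10). It had 68.2, 66.2 and 72.5 CPM in OIR libraries, against 50.3, 44.2 and 44.0 CPM in normal libraries. The groups were apart and each varied little, with a coefficient of variation of 4.65% in OIR and 7.79% in normal libraries. The log2 fold change was 0.58 ± 0.082 (SE), a 1.49-fold difference (edgeR adjusted p of 0.000732).

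The 3′ end of Shmt2 shares 32 exon bases, 1.03% of its exons, with the 3′ end of Ndufa4l2 on the opposite strand (chromosome 10, 127514967 to 127517154, mm10), a gene known to be induced by hypoxia-inducible factors. Ndufa4l2 had 2025, 2028 and 1955 counts in OIR libraries, against 91, 98 and 76 counts in normal libraries, a 21.7-fold difference (edgeR adjusted p of 2.08e-09). Shmt2 had 3515 counts over the OIR libraries and 2251 over the normal ones. Whether strand was used in the counting is not stated in the labels or processing notes, and the part of Ndufa4l2 reads in the count of Shmt2 was not tested.

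Mthfd2, the mitochondrial dehydrogenase and cyclohydrolase of the next step, did not pass. It had 6.60, 9.26 and 7.93 CPM in OIR libraries, against 6.83, 7.54 and 7.78 CPM in normal libraries. The groups overlapped, with a log2 fold change of 0.10 and a standard error of 0.16 (edgeR adjusted p of 0.713). Mthfd2l, its near relative that serves the same step, had a log2 fold change of 0.03 and also did not pass (edgeR adjusted p of 0.911).

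Mthfd1l, the ligase that frees formate in mitochondria, was higher (ENSMUSG00000040675, chromosome 10, 3973118 to 4167081, plus strand, mm10). It had 25.3, 29.4 and 25.5 CPM in OIR libraries, against 14.5, 14.4 and 13.4 CPM in normal libraries. The groups were far apart relative to their spread. The log2 fold change was 0.92 ± 0.11 (SE), a 1.90-fold difference (edgeR adjusted p of 0.000225). Exons of no other annotated gene overlap its own in GENCODE vM21.

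Aldh1l2, the mitochondrial counterpart of Aldh1l1 and a source of NADPH, was higher by a call that depended on single libraries (ENSMUSG00000020256, chromosome 10, 83487450 to 83534140, minus strand, mm10). It had 4.13, 5.37 and 4.94 CPM in OIR libraries, against 2.46, 3.35 and 2.64 CPM in normal libraries, from 41 to 91 counts per library. The groups were apart. The log2 fold change was 0.77 ± 0.22 (SE), a 1.71-fold difference (edgeR adjusted p of 0.0304). The call was lost without OIR 2 (adjusted p of 0.123), OIR 3 (0.0721), normal 1 (0.069) or normal 3 (0.104) and with sex as a covariate (0.0655), and the log2 fold change ranged from 0.68 to 0.91 over 14 alternatives, with adjusted p from 0.0166 to 0.123. Of its exon bases 14.1% are shared with D10Wsu102e on the opposite strand, which did not pass (log2 fold change −0.06, edgeR adjusted p of 0.711). D10Wsu102e had 1749 counts over the OIR libraries and 1740 over the normal ones, against 245 and 137 for Aldh1l2. The part of D10Wsu102e reads in the count of Aldh1l2 and in its ratio to Aldh1l1 was not tested.

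**Figure D3:**
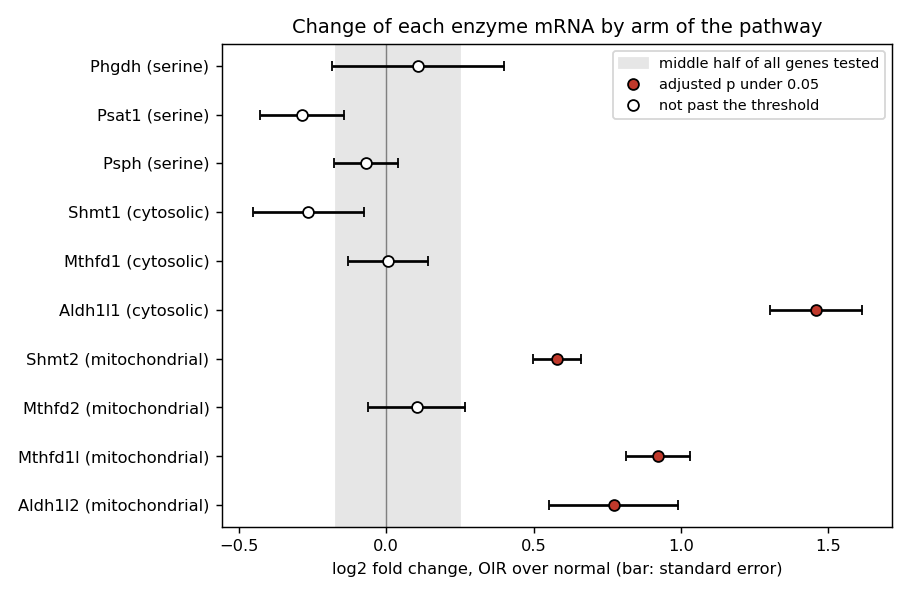
Log2 fold change of OIR over normal (horizontal axis, bars are standard errors) for the 10 enzymes in order of pathway arm, with the range from the lower to the upper quartile of all genes tested in grey. Shmt2, Mthfd1l, Aldh1l2 and Aldh1l1 lie to the right of the grey band. Phgdh, Psph, Mthfd1 and Mthfd2 lie in it, and Psat1 and Shmt1 lie to its left.

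Within each sex the difference of mean log2 CPM was taken after a small constant was added to each CPM. That constant shrinks the differences of genes with low levels. Each difference has a single library on one side, OIR 2 against normal 1 and 3 among males and OIR 1 and 3 against normal 2 among females. No test was made. All 4 called enzymes were higher in both sexes, by 1.41 in males and 1.32 in females for Aldh1l1, 0.49 and 0.66 for Shmt2, 1.05 and 0.80 for Mthfd1l, and 0.95 and 0.38 for Aldh1l2. Phgdh differed in sign, at −0.62 in males and 0.46 in females, and so did Mthfd2 (0.32 and −0.055) and Mthfd1 (0.029 and −0.027). Psat1 was at −0.69 in males and −0.11 in females. The female values of both genes include OIR 3, the library with the lens transcripts. Among females Phgdh had 8.02 CPM in OIR 1 and 14.98 CPM in OIR 3, against 7.85 CPM in normal 2. Psat1 had 38.1 CPM in OIR 1 and 46.5 CPM in OIR 3, against 45.5 CPM in normal 2. A difference between the sexes therefore cannot be told apart from this library.

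Levels per length, as FPKM from the deposited gene length, placed Shmt2 first in both groups, at 22.2 ± 1.03 FPKM in OIR and 14.9 ± 1.16 FPKM in normal retina (SD, n = 3). Psat1 followed in both groups, at 8.86 ± 2.12 FPKM in OIR and 10.8 ± 0.261 FPKM in normal retina. Aldh1l1 came next in OIR retina at 7.54 ± 1.62 FPKM, where it overlapped Psat1 and Mthfd1l, but stood below Phgdh, Psph, Mthfd1 and Mthfd1l in normal retina at 2.74 ± 0.278 FPKM. In OIR retina Mthfd1l (6.03 ± 0.514 FPKM) followed it, and then Mthfd1, Psph and Phgdh, of which neighbours overlapped. In normal retina Psph, Mthfd1, Phgdh and Mthfd1l followed Psat1, and neighbours among these 4 overlapped. The last 3 were Mthfd2, Shmt1 and Aldh1l2 in both groups, none overlapping the next, and Aldh1l2 was lowest at 0.641 ± 0.0840 FPKM in OIR and 0.375 ± 0.0626 FPKM in normal retina. Summed over the 4 mitochondrial enzymes the level was 30.1 to 32.0 FPKM in OIR and 19.8 to 21.7 FPKM in normal libraries, and summed over the 3 serine synthesis genes it was 13.4 to 22.2 FPKM in OIR and 18.9 to 20.0 FPKM in normal libraries.

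The balance between the mitochondrial and the cytosolic enzyme of the same kind was compared for 3 pairs as ratios of FPKM. The ratio of Shmt2 to Shmt1 was 17.4, 21.3 and 22.0 in OIR libraries, against 12.3, 9.56 and 11.9 in normal libraries, and the groups did not overlap. The mean log2 ratio differed by 0.85, with p = 0.1 in an exact two-sided permutation test and 0.15 after adjustment over the 3 pairs. The ratio of Aldh1l2 to Aldh1l1 was lower, at 0.0589, 0.1005 and 0.106 in OIR libraries, against 0.116, 0.1498 and 0.144 in normal libraries. Over all 6 libraries the difference was −0.67 on the log2 scale (exact permutation p = 0.1, adjusted 0.15). Without OIR 1 it was −0.40. The ratio of Mthfd2 to Mthfd1 overlapped between groups, at 0.387, 0.567 and 0.484 in OIR libraries, against 0.354, 0.442 and 0.586 in normal libraries (difference of 0.07 on the log2 scale, exact permutation p = 0.8, adjusted 0.8). Mthfd1l, the mitochondrial ligase, was in none of the 3 pairs, and its ratio to Mthfd1 was not tested. Its mean level was 6.03 FPKM in OIR and 3.18 FPKM in normal retina, against 4.76 and 4.74 FPKM for Mthfd1. With 3 samples against 3 the smallest p that the exact permutation test can give is 0.1.

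**Figure D4:**
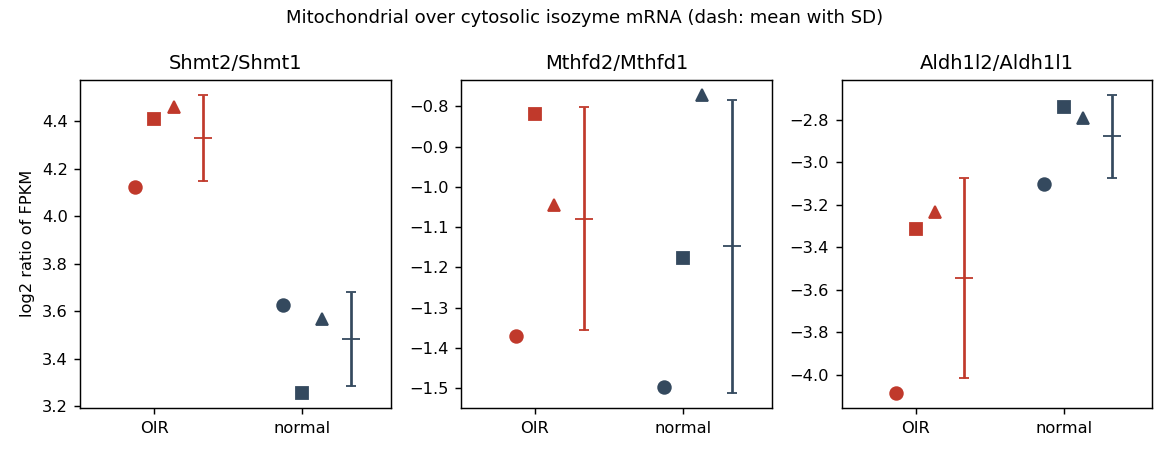
Log2 ratio of FPKM of the mitochondrial over the cytosolic enzyme mRNA in each library, with the mean and SD (vertical axes do not start at 0). Shmt2/Shmt1 lies higher and Aldh1l2/Aldh1l1 lower in all OIR libraries, and Mthfd2/Mthfd1 overlaps.

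Genes around the pathway were counted in the same edgeR test, in which 11.1% of all genes tested were higher and 8.73% lower. Of 12 tested genes of the rest of the folate cycle and of folate uptake, none passed in either direction by edgeR, DESeq2 or limma-voom, and 1 was higher at an unadjusted p under 0.05, against 17.2% of all genes (median log2 fold change of the list 0.09). With library totals alone, or without normal 1, 1 member was called higher. The folate carrier gene Slc19a1 had 38.6 ± 3.64 CPM in OIR and 40.6 ± 2.50 CPM in normal retina (SD, n = 3). None of the 4 glycine cleavage genes passed by any of the 3 tools, and none had an unadjusted p under 0.05 in the edgeR test, among them Gldc, the decarboxylase that opens the reaction, with 45.9 ± 5.94 CPM in OIR and 45.3 ± 2.74 CPM in normal retina, and Dld, its lipoamide dehydrogenase, with 104 ± 4.13 CPM in OIR and 115 ± 2.40 CPM in normal retina.

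Of 10 tested methionine cycle and transsulfuration genes 1 was lower and none higher, beside 8.73% of all genes lower and 11.1% higher. It was Ahcyl2, a relative of S-adenosylhomocysteine hydrolase, with a log2 fold change of −0.26 and an edgeR adjusted p of 0.0499, a call lost without any one library other than normal 2, with library totals alone, with at least 1 CPM in 3 samples, with the replicate block and with sex as a covariate. The most abundant members, Ahcyl1 and the S-adenosylmethionine synthetase gene Mat2a, had log2 fold changes of 0.0079 and 0.06. Of 13 purine synthesis genes 1 was higher and 1 lower, beside the same shares of all genes. Adssl1, a muscle-type adenylosuccinate synthase gene, had 19.8 ± 1.96 CPM in OIR and 12.9 ± 2.80 CPM in normal retina. Prps1, which makes the ribose donor, had 36.4 ± 1.99 CPM in OIR and 44.2 ± 1.44 CPM in normal retina (SD, n = 3, edgeR adjusted p of 0.0197 and 0.0268). Neither call was made without OIR 1, without OIR 2 or without normal 3, the lower call was also lost with the replicate block and with sex as a covariate, and 2 genes were higher without normal 1 or with no filter.

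Of 16 tested genes that carry or use serine and glycine, 2 were higher, or 1 without normal 3, and 4 lower. Among all genes tested, 11.1% were higher and 8.73% lower. Slc1a4, a neutral amino acid exchanger that carries serine, had 35.1, 40.2 and 37.9 CPM in OIR libraries, against 20.7, 18.6 and 20.9 CPM in normal libraries, or 1.88-fold (edgeR adjusted p of 9.85e-05). Slc6a9, the glycine transporter GLYT1, was lower in OIR retina, with 73.8, 79.8 and 91.3 CPM, against 140.2, 121 and 130.1 CPM in normal libraries (log2 fold change −0.68, edgeR adjusted p of 0.000556). Slc38a1, a glutamine and neutral amino acid transporter gene, was also lower, with 243 ± 13.5 CPM in OIR and 338 ± 29.2 CPM in normal retina. The remaining calls, named after their values were seen, were Sfxn3 (higher, 0.31 on the log2 scale), Sfxn1, the mitochondrial serine carrier gene (lower, −0.35), and Slc6a5, the neuronal glycine transporter gene (lower, −0.56).

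Lower glycolysis, which yields and consumes 3-phosphoglycerate, was called higher in 4 of 6 genes and lower in none (11.1% and 8.73% of all genes). The median log2 fold change was 0.44, and 2 genes were called higher without OIR 3 or without normal 3. Pgk1, the kinase that forms 3-phosphoglycerate, had 900.0 ± 14.2 CPM in OIR and 618 ± 63.8 CPM in normal retina (SD, n = 3), and Tpi1 had 963 ± 6.23 CPM in OIR and 650.4 ± 84.6 CPM in normal retina. Pgam1, the mutase that draws 3-phosphoglycerate on towards pyruvate, had 812 ± 13.6 CPM in OIR and 645 ± 68.8 CPM in normal retina. The edgeR adjusted p of these 3 genes were 0.00106, 0.00152 and 0.0168.

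Of ATF4 and 19 other genes it is known to induce, 10 were higher and none lower by edgeR (11.1% and 8.73% of all genes). At an unadjusted p under 0.05 the edgeR counts were 12 and 1 (17.2% and 15.3% of all genes). DESeq2 called 11 and limma-voom 10 higher (11% and 11.1% of all genes), and the median log2 fold change was 0.32. Stc2, a secreted glycoprotein gene, had 22.1, 24.0 and 23.0 CPM in OIR libraries, against 4.91, 4.50 and 4.05 CPM in normal libraries, and Eif4ebp1, an inhibitor of translation, had 6.13, 7.31 and 6.17 CPM in OIR, against 1.26, 1.22 and 1.09 CPM in normal libraries. Nupr1, a stress-response gene, had 26.5 ± 11.2 CPM in OIR and 4.29 ± 0.319 CPM in normal retina (SD, n = 3). Atf4 itself was 1.24-fold higher (edgeR adjusted p of 0.0144). Asns, the asparagine synthetase gene, did not pass (log2 fold change −0.13), nor did Sesn2 and Slc7a11 (−0.02 and 0.22); these 4 were named after their values were seen.

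**Figure D5:**
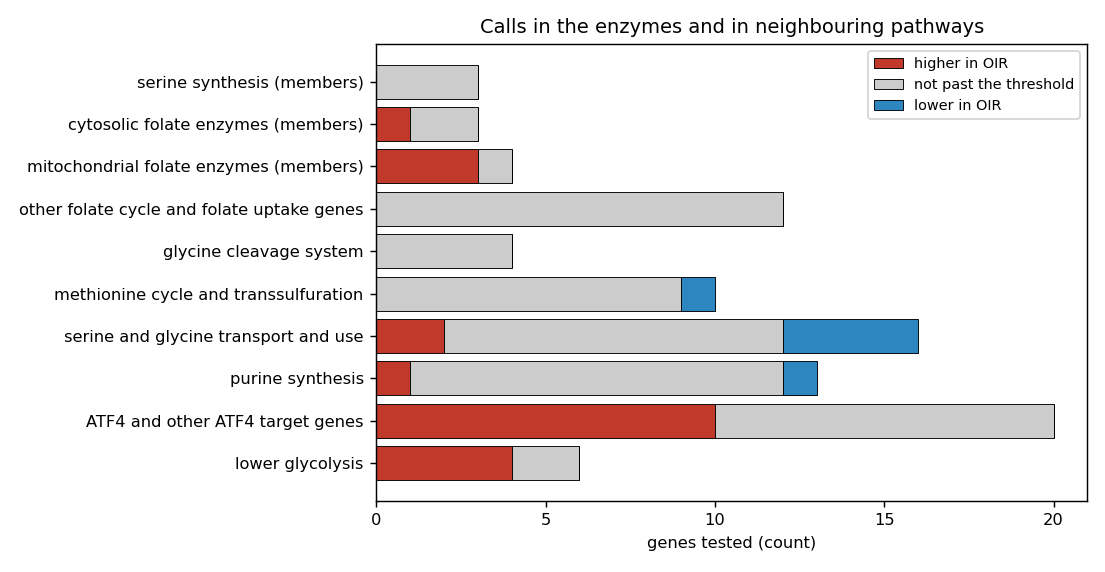
Number of tested genes (horizontal axis) called higher, not past the threshold or called lower in OIR retina, for the 3 arms of the pathway and 7 neighbouring lists. The mitochondrial arm has 3 of 4 higher, beside 11.1% of all genes tested, and the rest of the folate cycle and glycine cleavage have no calls.

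The genes whose levels followed an enzyme most closely over the 6 libraries were sought among 10460 protein-coding genes with a mean of at least 10 CPM, by the root mean square difference of log2 CPM centred on each gene's mean. Aldh1l1 was nearest to Egfl7, which encodes a protein secreted by endothelial cells, and Pdlim3, at 0.11 and 0.12 on the log2 scale. Egfl7 had 28.3, 22.6 and 21.8 CPM in OIR libraries, against 9.05, 9.55 and 6.69 CPM in normal libraries. By this measure a gene so near to Aldh1l1 has to share its difference between groups. Endothelial markers were higher in 8 of 10 cases and lower in none (11.1% and 8.73% of all genes). Their sums were 675 to 756 CPM in OIR and 426 to 494 CPM in normal libraries, with no marker at 0. The part of endothelial markers in the rise of Aldh1l1 was not tested. Phgdh was nearest to Adamts18 and to Folr1, a folate receptor gene, at 0.17 and 0.19, and both were also highest in OIR 3, at 24.4 and 17.4 CPM. Mthfd2 was nearest to Zbtb34 and Bend4, both at 0.063. Phgdh and Mthfd2 themselves had means below the 10 CPM asked of the genes compared. Mthfd2 rests on 112 to 157 counts per library, so its pattern holds much sampling noise.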

How the data were processed

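Per the labels' protocols, retinal RNA was isolated with TRIzol and made into libraries with an NEBNext Ultra kit, whose standard form keeps no strand information. The authors deposited unnormalized counts for each gene, with a gene length. The submitters' processing notes name the build mm10, HISAT2 2.0.5, fastp, CASAVA 1.8, featureCounts 1.5.0-p3 and also DESeq2 1.20.0. The annotation release, the strand setting and how reads of overlapping genes were counted are not stated there. All member coordinates equal those of GENCODE vM21.

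Columns named OIR, day and number were matched to the OIR samples, and those with day and number alone to the normal samples. Within a group, no pair of libraries agreed within sampling noise (chi-square over its degrees of freedom was 7.20 to 23.1), and all 6 were kept. The members and lists were chosen with earlier results of these data known.

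Groups were compared in edgeR 4.0.16 (R 4.3.3) by the quasi-likelihood test without covariates, after TMM scaling and filterByExpr (minimum count 10, total 15). P-values were adjusted by Benjamini-Hochberg over 17108 genes, with a threshold of 0.05. The genes left out held 0.164% of counts. The test was also run on simulated data, with results not reported here, and no support is drawn from that run. Standard errors are the log2 fold change over the square root of F. Isozyme ratios were tested with SciPy 1.17.1. FPKM divides by the deposited length, the union of all exons, so a gene with long or many alternative exons reads low. Alternatives were DESeq2 1.42.0, limma-voom (limma 3.58.1), library totals alone, median-of-ratios size factors, a filter of at least 1 CPM in 3 samples, no filter, the replicate number as a block, sex as a covariate, each library left out, a threshold of 0.01 and, for ratios, 1 FPKM added. Besides all members, up to 3 called genes per list with the smallest adjusted p were named or, with fewer than 2 called, the 2 most abundant. Marker lists other than the glial ones are given mostly as sums. Ahcyl2, Tyms, Glul, Mthfd2l, the overlapping neighbours and the genes so described in the text were named outside that rule after their values were seen. Some genes that the rule names are not reported here.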

Additional observations from a re-analysis of the deposited data

How the results depend on the processing

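Aldh1l1, Shmt2 and Mthfd1l were higher in OIR retina and past the threshold in all 14 alternative fits, with log2 fold changes of 1.27 to 1.57, 0.53 to 0.64 and 0.84 to 0.97. Aldh1l2 passed in 9 of 14. It missed the threshold with sex as a covariate (0.76) and at an adjusted p under 0.01 (0.77), and ranged from 0.68 to 0.91 with each library left out. The count of enzymes called was 3 or 4 higher and 0 or 1 lower with each library left out. Over all genes, leaving out each library gave 1237 to 2097 higher and 761 to 1734 lower genes, and a threshold of 0.01 gave 1116 and 647. Phgdh turned to −0.043 with sex as a covariate and ranged from −0.37 to 0.35 with each library left out. Mthfd1 turned to −0.0018 with DESeq2, −0.0015 with median-of-ratios size factors, −0.00070 with no filter and −0.012 with sex as a covariate, and ranged from −0.13 to 0.13 with each library left out, whereas Mthfd2 ranged from −0.031 to 0.22 and Psat1 from −0.48 to −0.13. None of these 3 sign changes concerns a called value, and the cause was not tested. Among isozyme ratios, leaving out each library gave log2 differences of 0.73 to 0.95 for Shmt2/Shmt1, −0.82 to −0.40 for Aldh1l2/Aldh1l1 and −0.11 to 0.26 for Mthfd2/Mthfd1. Same-numbered OIR and normal libraries did not deviate together more than others (correlations of 0.071, −0.21 and 0.11 over 15814 genes). Libraries of different number gave −0.24 to 0.12. These values show no pairing by number, but with so few libraries they cannot exclude one. With the replicate number as a block 4 enzymes were higher and 0 lower, and 1680 and 1166 of all genes. Counts limit Shmt1 and Aldh1l2 most, with fewer than 100 counts in every library.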

Other observations

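A pair of genes near the pathway and an astrocyte marker were far higher in OIR 3, the library with the lens transcripts, than in any other. Gapdh, the glycolytic dehydrogenase gene, had 26.9, 26.8 and 264 CPM in OIR 1, 2 and 3, against 23.5, 26.0 and 27.2 CPM in normal libraries, while Pgk1 of the next step had 914, 899 and 886 CPM in OIR, against 692, 586 and 577 CPM in normal libraries. Mouse Gapdh has many near-identical processed copies, so its level is uncertain. Slc38a4, a neutral amino acid transporter gene, had 0.766, 0.236 and 4.58 CPM in OIR libraries, against 0.359, 0.547 and 0.386 CPM in normal libraries, and was not tested. Fgfr3, a growth factor receptor gene of the astrocyte list, had 0.707, 1.18 and 9.34 CPM in OIR libraries, against 1.44, 2.74 and 1.22 CPM in normal libraries. Gapdh and Fgfr3 did not pass edgeR's quasi-likelihood test, with log2 fold changes of 2.05 and 1.05. These genes were picked after their values were seen, and the part of the lens transcripts in them was not tested.

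Proliferation markers were higher in 7 of 12 cases and microglial markers in 6 of 10, with none lower in either list by edgeR. In the same test 11.1% of all genes were higher and 8.73% lower. Thymidylate synthase, the folate-using enzyme encoded by Tyms and a member of the proliferation list, had 4.54, 4.48 and 4.23 CPM in OIR libraries, against 3.77, 4.01 and 3.99 CPM in normal libraries, and did not pass (log2 fold change 0.17, edgeR adjusted p of 0.566). In the same libraries Mki67 had 14.3, 6.25 and 8.58 CPM in OIR, against 0.300, 0.487 and 0.514 CPM in normal retina.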
